A study of Homo sapiens with 2 samples.

Results

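The clustered protocadherin genes are 54 of the 50868 genes in the deposited table. They were taken as the rows on chromosome 5 whose symbol begins with PCDHA, PCDHB, PCDHGA, PCDHGB, PCDHGC or PCDHAC and ends in a number. All lie on the plus strand of GRCh38 between positions 140786136 and 141512981, a span of 726.8 kb, in an alpha cluster of 16 genes, a beta cluster of 16 and a gamma cluster of 22 (12 gamma A, 7 gamma B and 3 gamma C genes). 53 of the 54 are protein coding in GENCODE 29, and PCDHA14 is a transcribed pseudogene.

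Messenger RNA was sequenced from 2 cultures labelled HepG2, a human liver cancer line. The resistant culture had undergone stepwise selection in sorafenib, a kinase inhibitor given for liver cancer, starting at 2.5 µM and raised in steps of 0.5 µM to 7 µM. The parental culture was untreated and carries the label WT. Both were grown in DMEM with serum, and each group had 1 library, so the spread between cultures is unknown and no test of the conditions was possible. Counts over all genes summed to 16811907 in the resistant and 18067146 in the parental library. Of 8 hepatocyte markers, ALB, AFP, TTR, APOA1, APOB, SERPINA1 and FGB had 0 counts in both libraries and HNF4A had 2 in each. The defining transcripts of the labelled cell type were thus at 0 or close to it, and the cultures are called here by their labels alone.

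Clustered protocadherins are adhesion proteins of the cadherin family. They are best known in neurons, where each cell shows a combination of isoforms at its surface and like isoforms bind each other between cells. Each alpha or gamma gene contributes a large variable exon with a promoter of its own, which codes for the outside of the protein and its membrane span. This exon is spliced to 3 constant exons at the far end of the cluster, which give all proteins of that cluster a common cytoplasmic end. Beta genes have no such constant exons. Promoter use is known to involve a conserved element around the letters CGCT, the insulator protein CTCF, cohesin and DNA methylation.

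The splice junctions of 3 gamma genes and 2 alpha genes are shown because they set what a read can tell. In each line the last 20 bases of a variable exon are in lower case and the first 40 bases of the constant exon 2 in capitals, read from GENCODE 29 transcripts on GRCh38.
PCDHGA6: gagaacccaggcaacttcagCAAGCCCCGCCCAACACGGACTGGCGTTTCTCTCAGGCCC
PCDHGA11: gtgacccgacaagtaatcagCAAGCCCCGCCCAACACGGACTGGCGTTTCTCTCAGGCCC
PCDHGB1: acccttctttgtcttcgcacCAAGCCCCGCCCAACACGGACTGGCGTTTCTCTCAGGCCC
PCDHA4: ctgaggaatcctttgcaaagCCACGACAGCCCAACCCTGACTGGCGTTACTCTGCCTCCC
PCDHA6: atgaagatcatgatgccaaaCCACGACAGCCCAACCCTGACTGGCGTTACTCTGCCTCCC
The capitals are identical within a cluster and differ between clusters. The gamma exon 2 lies at chr5:141494807-141494865 and is 59 bases long. The alpha exon 2 has the same length, at chr5:140978949-140979007. The last constant exon, exon 4, has 2033 bases in the gamma cluster (chr5:141510947-141512979) and 2718 in the alpha cluster (chr5:141009627-141012344).

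All 22 gamma genes shared exon bases with the 21 others, over 27.57% to 64.39% of their exon bases (median 43.89%). All 16 alpha genes shared exon bases with another gene, with a median of 46.63%. PCDHA14 had no base of its own, because it lies within exons of PCDHA10. In the beta cluster 5 of 16 genes overlapped an exon of another gene, by at most 9.435% of their exon bases. Those other genes were AC244517.6, AC244517.8 and AC244517.10, and all of them had 0 counts in both libraries. Beta genes resembled each other in sequence instead: a median of 13.48% of their stretches of 50 bases occurred in another member, with a range of 0 to 45.71%. The sources used here do not say how reads from constant exons or near-identical stretches were assigned. Single alpha and gamma values are therefore uncertain. The cluster sums are less exposed to that step if reads from constant exons were split among the genes of a cluster. If such reads were left out, the alpha and gamma sums would be lowered more than the beta sum.

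**Figure D1:**
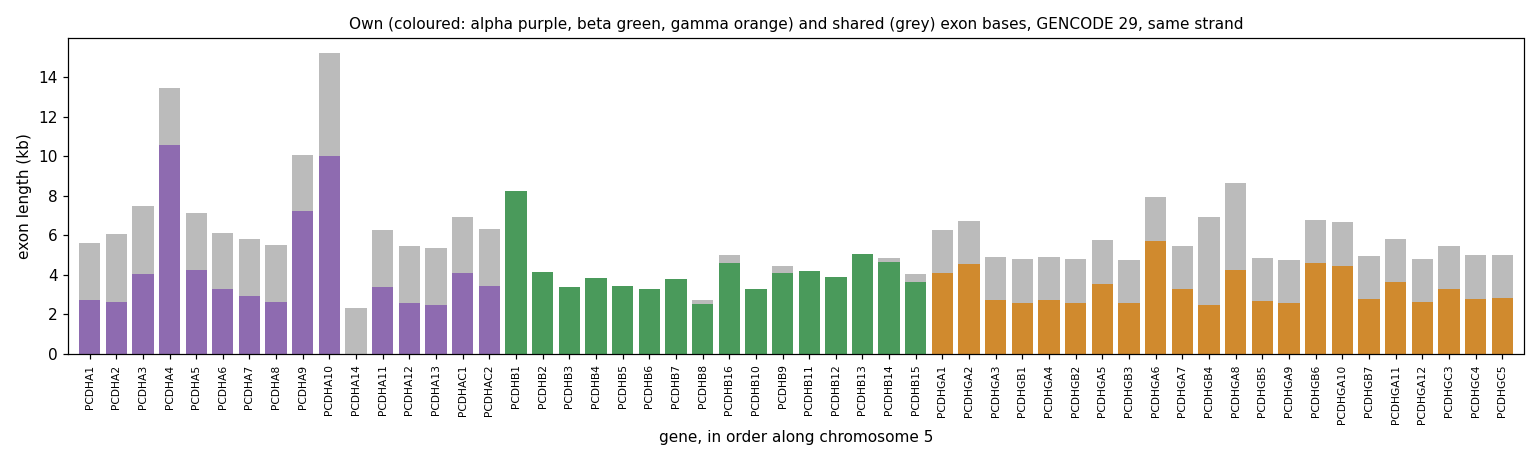
Exon length in kb of the 54 genes in chromosome order, from GENCODE 29, split into bases of the gene's own (purple for alpha, green for beta, orange for gamma) and bases shared with another gene on the same strand (grey). All alpha and gamma bars carry a grey part, and 5 of the 16 beta bars do.

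The promoter element is shown for genes with counts and for genes without, because it is the sequence through which these promoters are known to be read. Windows of 32 bases around the match come from RefSeq promoters of build GRCh38.p14, which span 250 bases before to 50 after a gene's start, 300 in all. Promoters were found for 47 members, and PCDHA3, PCDHA13, PCDHA14, PCDHB6, PCDHB11, PCDHGA12 and PCDHGC5 had no entry. Capitals mark the matched motif.
PCDHA1 (chr5:140786084-140786115, plus strand): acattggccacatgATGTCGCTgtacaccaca
PCDHA4 (chr5:140806977-140807008, plus strand): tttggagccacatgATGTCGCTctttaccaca
PCDHA6 (chr5:140827895-140827926, plus strand): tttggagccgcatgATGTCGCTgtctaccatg
PCDHB2 (chr5:141094542-141094573, plus strand): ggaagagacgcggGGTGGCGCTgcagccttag
PCDHB13 (chr5:141213863-141213894, plus strand): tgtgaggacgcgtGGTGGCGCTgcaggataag
PCDHB15 (chr5:141245312-141245343, plus strand): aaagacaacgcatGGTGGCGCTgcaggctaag
PCDHB7 (chr5:141172564-141172595, plus strand): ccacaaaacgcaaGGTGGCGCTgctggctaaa
PCDHGA6 (chr5:141373833-141373864, plus strand): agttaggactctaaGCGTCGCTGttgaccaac
PCDHGA11 (chr5:141420970-141421001, plus strand): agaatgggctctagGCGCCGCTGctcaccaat
PCDHGB1 (chr5:141350023-141350054, plus strand): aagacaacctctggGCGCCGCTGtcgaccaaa
PCDHGA4 (chr5:141354958-141354989, plus strand): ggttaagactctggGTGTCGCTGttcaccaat
PCDHGC3 (chr5:141475878-141475909, plus strand): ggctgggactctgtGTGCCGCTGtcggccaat
The alpha windows carry ATGTCGCT, the beta windows GGTGGCGCT and the gamma windows GNGNCGCTG, where N is any base. The motifs were chosen after the sequences had been inspected and were searched on both strands.

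The core CGCT occurred in 46 of 47 member promoters, and in 71.87% of the promoters of all 27305 genes in the table. ATGTCGCT occurred in 9 of 13 alpha promoters and in no beta or gamma promoter, against 0.282% of all promoters. GGTGGCGCT occurred in 13 of 14 beta promoters, all but that of PCDHB1, and in no other member, against 0.6189% of all promoters. GNGNCGCTG occurred in 18 of 20 gamma promoters and, where it overlaps the beta motif, in 12 of 14 beta promoters, against 12.17% of all promoters. The short sequence CCCTC, which alone does not mark a CTCF site, was found in 3 alpha, 0 beta and 11 gamma promoters. It occurred in 73.27% of all promoters, and CTCF binding was not tested. Genes that hold an element were found with and without counts. PCDHB7 had 0 counts in both libraries with the same letters as PCDHB2, and of the 9 alpha genes with ATGTCGCT only PCDHA4 and PCDHA6 had any count.

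The clustered protocadherins were near the lower limit of detection in both cultures. 33 of the 54 had at least 1 count in either library (61.11%), against 14812 of 19691 protein-coding genes (75.22%). Levels are given as CPM, counts relative to depth with a correction for composition, and a gene counted as measured if either library reached 1 CPM. Only 5 members were measured (9.259%), against 12171 protein-coding genes (61.81%). The highest member, PCDHB2, reached 1.79 CPM in the resistant library, while measured protein-coding genes had a median of 35.02 CPM in the resistant and 34.71 CPM in the parental library. 27 members had counts in both libraries, 4 in the resistant alone and 2 in the parental alone. Those seen in 1 library alone had at most 3 counts there, which counting error can give. The share of such genes over the whole table is not given here, so no difference is read from them. At this depth 3 counts correspond to 0.179 CPM in the resistant and 0.1656 CPM in the parental library, which is taken as the limit for a count of 0. In bulk RNA, fewer cells that use a gene and less RNA per cell cannot be told apart.

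The 21 genes with 0 counts in both libraries were mostly alpha genes. In the alpha cluster these were PCDHA1, PCDHA2, PCDHA5, PCDHA7, PCDHA8, PCDHA10, PCDHA11, PCDHA12, PCDHA13, PCDHA14, PCDHAC1 and PCDHAC2. In the beta cluster they were PCDHB1 and PCDHB7. In the gamma cluster they were PCDHGA4, PCDHGA8, PCDHGA12, PCDHGB4, PCDHGB5, PCDHGC4 and PCDHGC5. PCDHAC1, PCDHAC2, PCDHGC3, PCDHGC4 and PCDHGC5 are the C-type isoforms, which in mouse neurons are used more uniformly than the others, and PCDHGC4 is known in mouse for its part in neuron survival. Of these 5, PCDHGC3 had 1 count in the resistant library and 0 in the parental library, and the others had none.

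**Figure D2:**
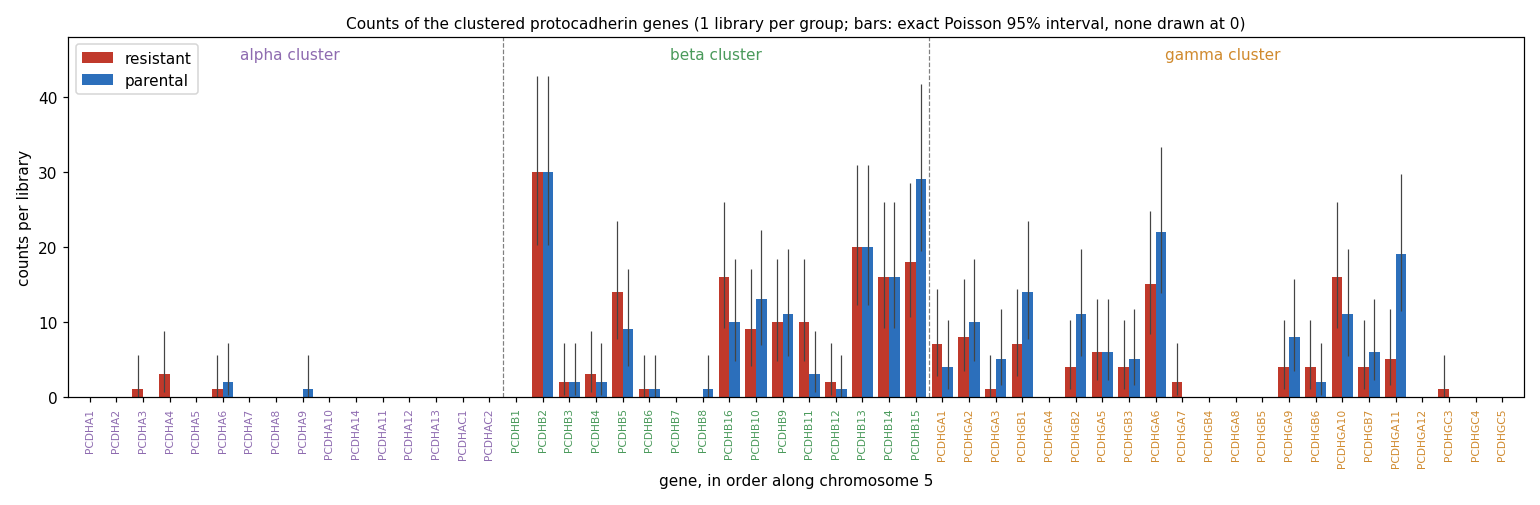
Counts per library of the 54 genes in chromosome order, resistant in red and parental in blue, with exact Poisson 95% intervals (none at 0). The alpha cluster is almost empty, and the tallest bars are the 30 counts of PCDHB2 in each library and the 29 counts of PCDHB15 in the parental library.

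The alpha cluster summed to 5 counts in the resistant and 3 in the parental library, that is 0.2983 CPM (exact Poisson 95% interval 0.0969 to 0.696) and 0.1656 CPM (0.0341 to 0.484). PCDHA4 had 3 counts in the resistant and 0 in the parental library, PCDHA3 had 1 and 0, PCDHA6 had 1 and 2, and PCDHA9 had 0 and 1. The fold of the sums, resistant over parental, was 1.80, with an exact 95% counting interval of 0.3505 to 11.6. A difference in this cluster was not detectable at this depth.

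The beta cluster held the largest sum in both libraries, with 151 counts in the resistant and 148 in the parental library. This came to 9.01 CPM (7.63 to 10.6) in the resistant and 8.17 CPM (6.91 to 9.60) in the parental library, a fold of 1.10 with an interval of 0.873 to 1.39. 14 of its 16 genes had counts, with more counts relative to depth in the resistant library for 10 and fewer for 4. Among the 10, PCDHB2, PCDHB3, PCDHB6, PCDHB13 and PCDHB14 had equal counts in both libraries. Their fold of 1.08 is depth scaling alone. A higher or lower beta sum was not detectable beyond counting error. The intervals cover counting error only, and PCR copies are not independent molecules. The rank of the beta sum above the other sums may depend on how reads from constant exons were assigned, which is not known.

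PCDHB2 led the cluster with 30 counts in each library, or 1.79 CPM in the resistant and 1.66 CPM in the parental library. Its fold was 1.08, with a counting interval of 0.6296 to 1.86, and it made up 19.9% of the beta counts in the resistant and 20.3% in the parental library. Per kb of exon it also stood highest among the members in both libraries, at 0.434 CPM per kb in the resistant and 0.401 CPM per kb in the parental library. PCDHB13 had 20 counts in each library and the same fold of 1.08, with an interval of 0.552 to 2.12. These 2 genes did not differ between the libraries beyond counting error.

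PCDHB15, the last beta gene, had 18 counts in the resistant and 29 in the parental library, or 1.07 and 1.60 CPM. Its fold was 0.671, with an interval of 0.351 to 1.25 that includes 1. Its share of the beta counts was 11.9% in the resistant library (Wilson 95% interval 7.67% to 18.1%) and 19.6% in the parental library (14% to 26.7%), and these intervals overlap. Its level per kb of exon was 0.267 CPM per kb in the resistant library, where it ranked next after PCDHB2, and 0.398 CPM per kb in the parental library, close to PCDHB2.

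Among the beta genes below 1 CPM, PCDHB14 had 16 counts in each library, PCDHB16 had 16 in the resistant and 10 in the parental library, and PCDHB5 had 14 and 9. PCDHB9 had 10 counts in the resistant and 11 in the parental library, and PCDHB10 had 9 and 13. The deposited range of PCDHB10, chr5:141182560-141195642, spans PCDHB9 and overlaps PCDHB16, and it differs from GENCODE 29, so its counts may not be separable from theirs. PCDHB11 had 10 counts in the resistant and 3 in the parental library, a fold of 3.60 whose interval of 0.928 to 20.4 includes 1. PCDHB3, PCDHB4, PCDHB6, PCDHB8 and PCDHB12 had at most 3 counts in either library.

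The gamma cluster summed to 88 counts in the resistant and 123 in the parental library, which is 5.25 CPM (4.21 to 6.47) and 6.79 CPM (5.64 to 8.10). The fold was 0.7734, with a counting interval of 0.5814 to 1.02 that includes 1. The gamma A genes summed to 64 counts in the resistant and 85 in the parental library, a fold of 0.814 (0.579 to 1.14). The gamma B genes summed to 23 counts in the resistant and 38 in the parental library, a fold of 0.654 (0.372 to 1.13). The gamma C genes summed to 1 count in the resistant and 0 in the parental library. Without PCDHGA11 the cluster had 83 counts in the resistant and 104 in the parental library, and the fold was 0.863 (0.639 to 1.16).

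**Figure D3:**
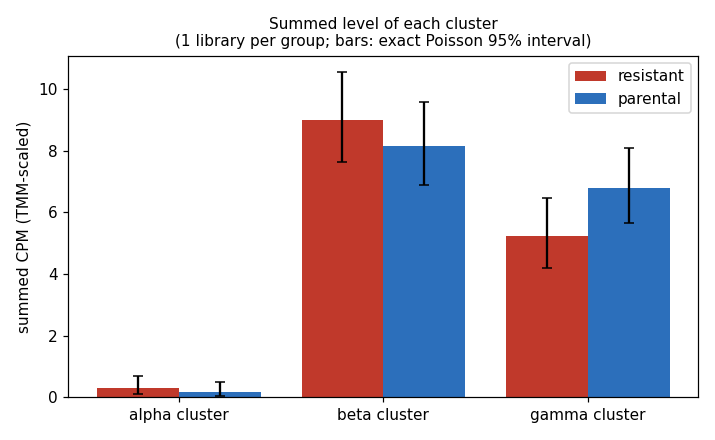
Summed CPM of the alpha, beta and gamma clusters, resistant in red left of parental in blue, with exact Poisson 95% intervals and 1 library per group. The bars of each pair have overlapping intervals, at 9.01 and 8.17 CPM for beta and 5.25 and 6.79 CPM for gamma.

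PCDHGA11 had 5 counts in the resistant and 19 in the parental library, or 0.298 and 1.05 CPM. Its fold was 0.284, with a counting interval of 0.0830 to 0.788, and it was the only member whose interval left out 1. The share of PCDHGA11 in the gamma counts was 5.68% in the resistant library (2.45% to 12.6%) and 15.4% in the parental library (10.1% to 22.9%), and these intervals overlap. It ranked 7 among the gamma genes in the resistant library and 2 in the parental library. 37.5% of its exon bases are constant ones, so its own part is 3633 bases.

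PCDHGA6 had 15 counts in the resistant and 22 in the parental library, or 0.895 and 1.21 CPM, a fold of 0.737 (0.3556 to 1.49). It made up 17.1% of the gamma counts in the resistant and 17.9% in the parental library. PCDHGA10 had 16 counts in the resistant and 11 in the parental library, a fold of 1.57 (0.685 to 3.75), and its share was 18.2% in the resistant (11.5% to 27.5%) and 8.94% in the parental library (5.07% to 15.3%). It was the gamma gene with the most counts in the resistant library, and PCDHGA6 was that gene in the parental library. PCDHGB1 had 7 counts in the resistant and 14 in the parental library, and PCDHGB2 had 4 and 11.

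The other gamma genes had at most 10 counts in either library. PCDHGA2 had 8 counts in the resistant and 10 in the parental library, PCDHGA9 had 4 and 8, PCDHGA1 had 7 and 4, and PCDHGA5 had 6 in each. PCDHGB7 had 4 and 6, PCDHGB3 had 4 and 5, PCDHGB6 had 4 and 2, PCDHGA3 had 1 and 5, and PCDHGA7 had 2 and 0. The counting interval of each of these folds includes 1. All genes with counts lie between PCDHGA1 and PCDHGA11, apart from PCDHGC3.

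No member was past the size rule, for which the log2 ratio had to reach 1 or fall to -1. The ratio was taken after adding 1 CPM to each library. This addition understates the difference of genes with such low values, and a gene below 1 CPM in both libraries cannot reach the rule whatever its fold. The count of 0 was therefore largely set by the members' low levels. Of the 14686 measured genes, 192 (1.31%) were past the rule as higher and 146 (0.994%) as lower in the resistant library. The 5 measured members had a median log2 ratio of -0.22, against -0.00176 for all measured genes. PCDHGA6, which is that median, and PCDHGA11 reached 1 CPM in the parental library alone, so the filter itself bears on the sign. For folds without the added 1 CPM, the median bounds of the 5 members' counting intervals were -1.49 and 0.57 on the log2 scale. Over the 33 members with any count the median log2 ratio was 0.01, and over the 12 with at least 20 counts it was 0.02. The first is the value of PCDHB3, with 2 counts in each library, and the second lies between PCDHB9 and PCDHB14. PCDHB14 had 16 counts in each library, so its ratio and that of PCDHB3 are above 0 through depth scaling alone. The threshold of 1 CPM fell between PCDHGA11, at 1.05 CPM in the parental library, and PCDHB14, PCDHB16 and PCDHGA10, each at 0.9545 CPM in the resistant library.

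A rule based on counting error alone allowed more members. 12 members had at least 20 counts over both libraries, and their resistant over parental fold was above 1 for 6 and below 1 for 6. The interval left out 1 for 1 of the 12, PCDHGA11, as lower, and for 0 of the 12 as higher. Among the 2045 other genes with 20 to 60 counts, it left out 1 for 160 (7.82%) as lower and for 220 (10.8%) as higher. The members' count is near that background.

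**Figure D4:**
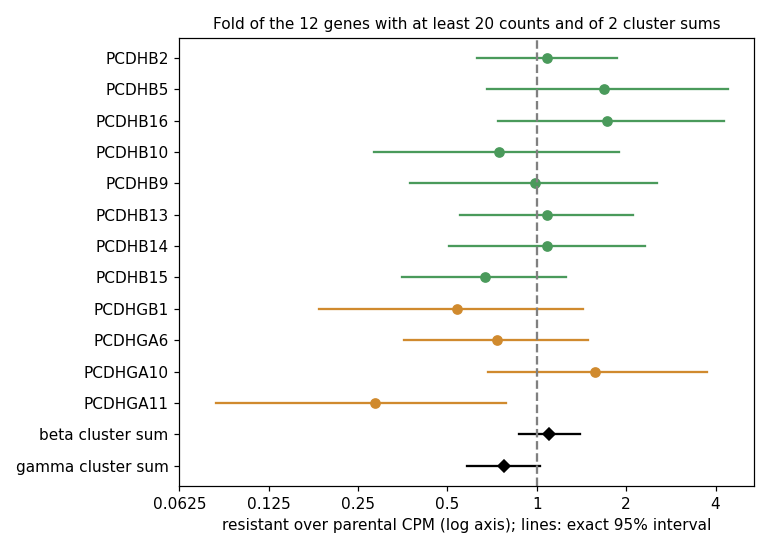
Fold of CPM, resistant over parental, on a log axis for the 12 members with at least 20 counts over both libraries and for the beta and gamma sums, with exact 95% counting intervals. All intervals cross the dashed line at 1 except that of PCDHGA11, which ends at 0.788.

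Inside the span lie 30 further genes, and 26 of them had 0 counts in both libraries. TAF7, a subunit of the general transcription factor TFIID, is the only measured one. It lies on the minus strand at chr5:141260225-141320821, 10.86 kb after the end of PCDHB15 and 9.749 kb before PCDHGA1. TAF7 had 197 counts in the resistant and 2416 in the parental library, or 11.75 and 133.3 CPM, which is 11.35-fold lower in the resistant library (9.81 to 13.2). PCDHB15 and PCDHGA1, its neighbours among the members, had folds of 0.671 and 1.89 whose intervals include 1 (0.351 to 1.25 and 0.481 to 8.81).

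The lincRNA AC005618.1, on the plus strand between TAF7 and PCDHGA1 (chr5:141326210-141329357), had 0 counts in the resistant and 12 in the parental library. Against a floor of 3 counts per library it was at least 3.7-fold lower in the resistant library, and the exact interval, which also covers the counting error of the parental value, allows a difference as small as 2.57-fold. The pseudogene PCDHB18P, before PCDHB15 in the beta cluster, had 0 counts in the resistant and 6 in the parental library. It was at least 1.85-fold lower against the same floor, and its exact interval allows 1.09-fold. Both were singled out after their values were seen, and neither reached 1 CPM. PCDHB17P, PCDHB19P, PCDHGB8P and PCDHGB9P, the other pseudogenes of the clusters, had 0 counts in both.

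Within 100 kb outside the span, 4 of 8 genes were measured and none was past the size rule, with a median log2 ratio of -0.08. HARS1, a histidine-tRNA synthetase gene, had 1258 counts in the resistant and 1422 in the parental library, a fold of 0.956 (0.886 to 1.03). DIAPH1, which codes for an actin-nucleating formin, had 3060 and 3823 counts, a fold of 0.865 (0.8248 to 0.908). HARS2 had a fold of 0.935 and ZMAT2 of 1.06. These genes stood far above the members in level, at 42.8 to 182.5 CPM in the resistant library.

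**Figure D5:**
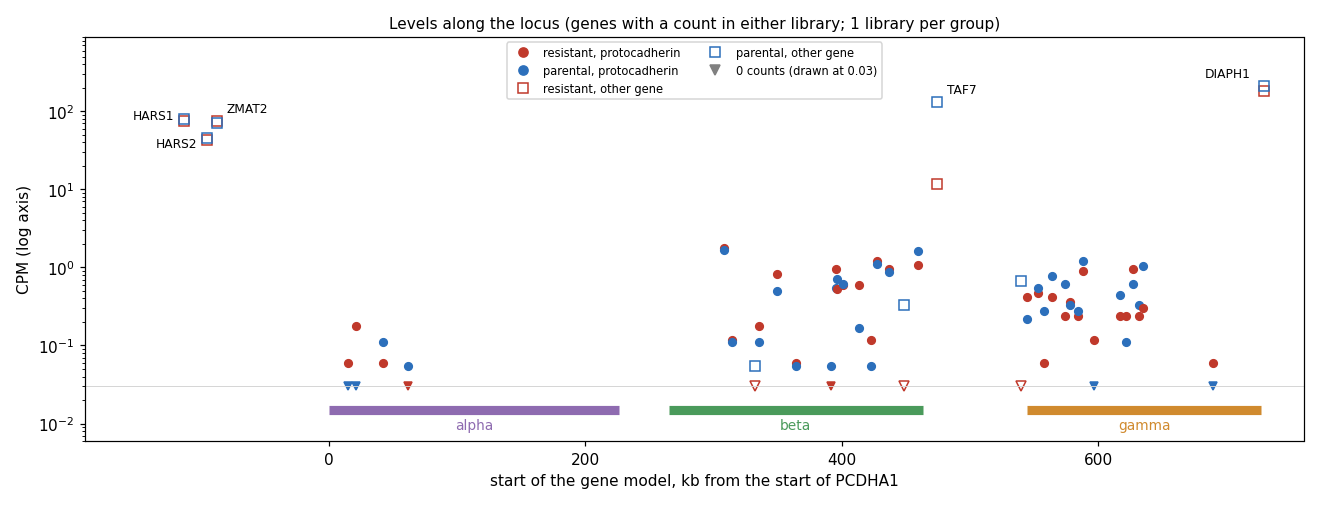
CPM on a log axis against the start of each gene model, in kb from the start of PCDHA1, for genes with a count in either library; filled symbols are protocadherins and open squares other genes, resistant in red and parental in blue, and triangles on the grey line are counts of 0. The protocadherins stay at or below 1.79 CPM, while TAF7 stands at 11.75 CPM in the resistant and 133.3 CPM in the parental library.

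The non-clustered protocadherins, which lie outside the 3 clusters and do not share their constant exons, were partly expressed. Of 12, 6 had 0 counts in both libraries and 4 were measured, with 0 past the size rule and a median log2 ratio of -0.04. PCDH7 had 764 counts in the resistant and 616 in the parental library, a fold of 1.34 (1.20 to 1.49). PCDH10 had 409 and 452 counts, a fold of 0.978 (0.854 to 1.12). PCDH9 had 288 and 321 counts, a fold of 0.970 (0.824 to 1.14), and PCDH15 had 24 and 36 counts, a fold of 0.721 (0.411 to 1.24). PCDH7 alone had more counts than the 54 clustered genes together, which summed to 244 in the resistant and 274 in the parental library, a fold of 0.963 (0.807 to 1.15).

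Genes known to act on the cluster's promoters were expressed in both libraries. All 19 listed regulators were measured, 7 with a positive and 12 with a negative log2 ratio, with a median of -0.08 and 0 past the size rule. The largest differences were those of STAG2, a cohesin subunit, with 4217 counts in the resistant and 5953 in the parental library (fold 0.766), and DNMT3B, a DNA methyltransferase, with 159 and 228 (fold 0.754). ZNF143, a factor found with CTCF at chromatin contacts, had a fold of 0.827, and HDAC3, a histone deacetylase, had 501 counts in the resistant and 639 in the parental library. CTCF had 1755 counts in the resistant and 2121 in the parental library, a fold of 0.894 (0.839 to 0.953). The regulators named so far are all among the 12 with a negative ratio. Of the 7 with a positive ratio the largest was that of RAD21, also a cohesin subunit. RAD21 had 20128 counts in the resistant and 19128 in the parental library, a fold of 1.137 (1.115 to 1.16).

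Of 21 genes for shedding enzymes and cytoplasmic partners of protocadherins, 19 were measured and 0 were past the size rule, with a median log2 ratio of -0.02. RET, a receptor kinase, and CYFIP2, a subunit of the WAVE complex, had 0 counts in both libraries. PRKCD, a protein kinase C, had 328 counts in the resistant and 557 in the parental library, a fold of 0.6365 (0.554 to 0.731). FYN, a Src family kinase, had 1197 and 968 counts, a fold of 1.34 (1.23 to 1.46). ADAM10, the protease that sheds protocadherins, had a fold of 0.834, and PTK2B, a kinase of the focal adhesion kinase family, had a fold of 1.22.

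Marker lists of other cell types were checked beside the members. Of 9 neuron markers, RBFOX3, STMN2, ELAVL3, ELAVL4 and NEFL had 0 counts in both libraries, and the list summed to 363 counts in the resistant and 421 in the parental library. SNAP25 had 193 and 258 of these, TUBB3 had 115 and 100, MAP2 had 35 and 29, and SYP had 20 and 34. No neuron marker was past the size rule.

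Of 7 fibroblast markers 5 were measured, and the list summed to 6761 counts in the resistant and 7195 in the parental library. The collagen genes COL3A1, with 3267 counts in the resistant and 3941 in the parental library, and COL1A1, with 2611 and 2565, stood far above the hepatocyte markers, which were at or near 0. LUM, which codes for a matrix proteoglycan, had 216 counts in the resistant and 93 in the parental library, a fold of 2.51 that was past the size rule. PDGFRB had 566 and 509 counts, DCN had 101 and 87, and COL1A2 and PDGFRA had 0 in both. The log2 ratio was positive for 4 of the 5 measured markers, with a median of 0.26.

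The 5 endothelial markers summed to 101 counts in the resistant and 50 in the parental library, and CDH5, a cadherin of endothelial junctions, made up the difference with 72 and 20. The CDH5 fold of 3.891 (2.344 to 6.745) was past the size rule. TEK had 22 counts in the resistant and 17 in the parental library, PECAM1 had 7 and 8, VWF had 0 and 5, and KDR had 0 in both. The 5 epithelial markers summed to 24962 counts in the resistant and 24399 in the parental library. KRT8 had 13692 and 14470 of these and KRT18 had 11238 and 9910, while CDH1 had 20 and 5, KRT19 had 12 and 14, and EPCAM had 0 in both. The CDH1 fold of 4.324 (1.575 to 14.74) was not past the size rule. The part of these cell types in the protocadherin counts was not tested.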

How the data were processed

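Whole-number counts per gene and library were used as the authors deposited them, and per the file headers they carry no normalization. The tools, per the submitters' processing notes, were bcl2fastq 2.19, HISAT2 2.0.4 and StringTie 1.3.0 on GRCh38; the sources used here do not give the annotation, the use of strand or the treatment of reads that fit several genes. The authors also deposited FPKM values. By a check on the file, their gene length is the sum of all annotated transcripts of a gene, within 1% for 28 and within 5% for 32 of the 33 members with counts. This is a median 1.445 times the exon length, so levels per kb were computed here from the exons of GENCODE 29. A further deposited table holds the authors' log2 fold changes, p-values and q-values, per the file headers, from 1 library against 1.

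CPM were computed from the counts with TMM factors of edgeR 4.0.16 in R 4.3.3 (0.997 resistant, 1.00 parental), with no model fitted. Folds are CPM ratios without a pseudocount, with exact Clopper-Pearson 95% intervals of 2 counts given their sum. The bounds given with the median log2 ratio are medians of the members' fold bounds on the log2 scale, without a pseudocount. DESeq2 1.42.0 gave size factors for an alternative. The calculation was checked on simulated data that held counting error only, the error the intervals assume. Recovery of set changes was judged only at levels far above those of the members, so it does not bear on them. The members, lists and rules were chosen with earlier results of these data known. Named genes were the measured members, the members at 0, TAF7, and up to 4 measured genes with the largest absolute log2 ratio from each companion list. All marker genes were named, and the other members were named to account for all of them. CTCF, RAD21, RET, CYFIP2, AC005618.1, PCDHB18P and the pseudogenes at 0 were named after their values were seen.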

Additional observations from a re-analysis of the deposited data

How the results depend on the processing

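The count of members past the size rule was 0 under every alternative run except a threshold of 0.58 on the log2 ratio, where it was 1 (PCDHGA11). This is no sign of stability, since members below 1 CPM cannot reach the rule with 1 CPM added. For PCDHGA11, which was measured, the outcome depends on the added value. Its log2 ratio was -0.658 with 1 CPM added, -0.956 with 0.5 CPM and -0.4076 with 2 CPM. Its fold without any addition was 0.2845. The median log2 ratio lay between -0.30 and 0.07. It was above 0 with no filter beyond 1 count (0.01) and for the 2 measured members that share no exon (0.07). The same held for members with at least 20 counts over both libraries (0.02). These values above 0 involve genes with equal counts in both libraries, whose ratio is depth scaling alone. In the deposited FPKM the median was -0.04, but there 1 was added to values of at most 0.350, which draws ratios towards 0. Without that addition PCDHGA6 had an FPKM fold of 0.733. Scaling by the library total or DESeq2's size factors, the FPKM and added pseudogenes gave folds of the sums from 1.35 to 1.80 (alpha), 1.06 to 1.10 (beta) and 0.7639 to 0.7734 (gamma). The minimum of 20 counts and the gamma sum without PCDHGA11 (0.863) were chosen after seeing the data. A minimum of 2 CPM left no member and gave no value. No paired analysis was possible because each group has 1 library, and no replicate could be left out. Depth limits the alpha cluster most.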

Other observations

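The authors' deposited table compared 29 of the 54 members and called 0 of them. The share it called over all genes is not given here, so this 0 is not read as a trait of the members. For PCDHGA11 the authors' deposited table gives a log2 fold change, resistant over parental, of -1.82 with a p-value of 0.0154 and a q-value of 0.240, and for PCDHB15 a log2 fold change of -0.58 with a q-value of 0.962. These come from 1 library against 1 and compare the libraries, not the conditions.

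The choice of gene length changes the order of levels among the members. In the deposited FPKM, PCDHB15 stood above PCDHB2 in the parental library, at 0.350 against 0.218, while per kb of exon PCDHB2 had 0.401 and PCDHB15 0.398 CPM per kb there. PCDHB2 has 5 annotated transcripts whose lengths sum to 7603 bases over 4126 bases of exon, and PCDHB15 has 2 that sum to 4589 over 4017.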
